A study of Mus musculus with 67 samples.

Results

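The loci of 10 genes of the mouse pluripotency network were followed by chromatin accessibility while embryonic stem (ES) cells became spinal cord progenitors. Of the 111638 accessible elements with values, 82 were members because the annotation named Pou5f1, Nanog, Esrrb, Klf4, Klf2, Zfp42, Tfcp2l1, Tbx3, Fgf4 or Utf1 as the gene with the nearest transcription start site (TSS). Klf4 had 22 of them, Esrrb 19, Tfcp2l1 14, Nanog 6, Zfp42 6, Klf2 4, Pou5f1 4, Tbx3 3, Fgf4 2 and Utf1 2. The annotation placed 45 in intergenic sequence, 30 in introns, 6 in exons and 1 at a promoter, and 10 covered an annotated TSS. Nearness does not show which gene an element acts on. The median width was 948.5 bp, against 883 bp over all elements, and the median of the mean normalized count was 42.9 against 41.4.

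The samples came from differentiations of HM1, a mouse ES cell line, and 67 were measured by CaTS-ATAC, in which fixed and transposed cells are sorted on intracellular transcription factors before sequencing. All differentiations were grown in N2B27 with bFGF and LGK to day 2, then with bFGF, CHIR99021, SB-431542 and DMH1 to day 3, and from day 3 with retinoic acid (RA) and SAG, an agonist of Sonic hedgehog signaling. Neuromesodermal progenitors (NMPs) at day 3 gave 3 samples, with SAG labelled as 0 nM. Neural progenitors (NPs) of the ventral types p0-1, p2, pMN and p3 were sorted at day 4 (6, 6, 6 and 5 samples), day 5 (6, 6, 5 and 5) and day 6 (5, 6, 4 and 4), each type from 2 of the SAG concentrations 0, 10, 100 and 500 nM. Those were 0 and 10 nM for p0-1, 10 and 100 nM for p2, and 100 and 500 nM for pMN and p3. The NP gates used SOX2 with PAX6, NKX6.1, OLIG2 and NKX2.2, so SOX2, a factor shared by ES cells and NPs, was required in every NP sample. All samples derive from 1 cell line, no undifferentiated ES cell sample was analysed here, and the level before day 3 was therefore not measured.

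In ES cells, OCT4 (Pou5f1) and NANOG work with SOX2 in a mutually reinforcing network that keeps cells able to form all embryonic lineages. A ring of naive pluripotency factors, including ESRRB, KLF4, KLF2, TFCP2L1 and TBX3, supports this state downstream of LIF and WNT signals, and genes such as Zfp42 (Rex1), Fgf4 and Utf1 are targets or markers of it. The naive factors are lost when cells enter the epiblast-like state, whereas OCT4 persists into the posterior epiblast before it too is shut down. The comparisons asked how much accessibility these loci held in day 3 NMPs and how much was left in NPs at days 4, 5 and 6.

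The promoters differ in their density of CpG dinucleotides, and 3 are shown from the ends of the range of what remained at day 6. Pou5f1 and Nanog kept least, and Klf4 kept most among the genes with a promoter sequence. Each line holds 250 bases before to 50 bases after the TSS on the sense strand, from RefSeq on GRCm38 (the mm10 build of the files), with every CpG in capitals.
Pou5f1 promoter, chr17:35505782-35506081, plus strand: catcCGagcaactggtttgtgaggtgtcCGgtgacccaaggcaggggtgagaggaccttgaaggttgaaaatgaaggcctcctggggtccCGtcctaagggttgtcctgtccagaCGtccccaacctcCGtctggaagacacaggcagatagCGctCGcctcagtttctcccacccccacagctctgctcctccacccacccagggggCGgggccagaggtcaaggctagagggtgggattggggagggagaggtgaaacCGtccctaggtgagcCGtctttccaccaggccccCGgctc
Nanog promoter, chr6:122707239-122707538, plus strand: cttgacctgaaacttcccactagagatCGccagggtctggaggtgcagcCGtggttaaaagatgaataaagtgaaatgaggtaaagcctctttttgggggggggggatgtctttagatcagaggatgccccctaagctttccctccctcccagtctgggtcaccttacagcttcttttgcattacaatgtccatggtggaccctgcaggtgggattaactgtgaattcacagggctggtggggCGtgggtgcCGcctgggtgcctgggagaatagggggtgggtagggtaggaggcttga
Klf4 promoter, chr4:55532426-55532725, minus strand: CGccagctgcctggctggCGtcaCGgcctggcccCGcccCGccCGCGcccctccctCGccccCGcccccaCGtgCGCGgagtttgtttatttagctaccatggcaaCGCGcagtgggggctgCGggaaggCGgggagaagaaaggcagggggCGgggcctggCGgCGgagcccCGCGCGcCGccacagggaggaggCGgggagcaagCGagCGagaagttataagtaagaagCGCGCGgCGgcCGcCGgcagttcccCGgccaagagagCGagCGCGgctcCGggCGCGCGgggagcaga
The Klf4 window held 40 CpGs, 0.97 of the number its base composition would give, the Pou5f1 window 11 (0.37) and the Nanog window 4 (0.19). Over 32851 RefSeq promoters the median ratio was 0.38. The 3 windows leave out genes that ran otherwise. The Esrrb promoter at its TSS element had a ratio of 0.32, and that element kept 36.6% of the NMP level at day 6. For Fgf4 the ratio was 0.77 and 16.8% was kept. The table held a promoter for 9 of the 10 genes, Tbx3 being the gene without an entry.

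The Zfp42 promoter is shown for its motif matches. In the line below, capitals mark the octamer ATGCAAAT, the sequence bound by OCT factors, and the KLF sequence GGGTGTGG, both read on the opposite strand.
Zfp42 promoter, chr8:43306960-43307259, minus strand: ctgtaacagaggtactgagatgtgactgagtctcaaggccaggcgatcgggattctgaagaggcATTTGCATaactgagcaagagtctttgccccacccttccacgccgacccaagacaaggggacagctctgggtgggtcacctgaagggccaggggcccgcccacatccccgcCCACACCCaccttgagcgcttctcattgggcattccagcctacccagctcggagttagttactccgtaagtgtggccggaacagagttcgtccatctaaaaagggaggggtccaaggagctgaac
It was the only one of the 12 promoter windows of these genes to hold any of the 4 sequences searched on both strands, the others being ACAAAG, bound by SOX factors, and AAGGTCA, bound by orphan nuclear receptors such as ESRRB. Over all promoters of that length the octamer was in 1.74%, the KLF sequence in 3.56%, ACAAAG in 18.7% and AAGGTCA in 4.72%. A match describes the letters only.

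Distal elements are represented by the middle 300 bases of 5 of them, on the plus strand of GRCm38, with motif matches in capitals. The first 3 lost accessibility after day 3 and the last 2 gained it.
Nanog element 4.57 kb upstream, chr6:122702845-122703144, ACAAAG on both strands: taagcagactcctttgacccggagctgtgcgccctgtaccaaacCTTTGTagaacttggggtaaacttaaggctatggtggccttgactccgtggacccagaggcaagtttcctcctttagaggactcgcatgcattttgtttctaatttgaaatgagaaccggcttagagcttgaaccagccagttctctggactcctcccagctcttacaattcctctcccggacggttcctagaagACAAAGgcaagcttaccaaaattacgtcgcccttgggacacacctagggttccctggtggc
Tfcp2l1 element 20.3 kb downstream, chr1:118648064-118648363, ACAAAG on the plus strand: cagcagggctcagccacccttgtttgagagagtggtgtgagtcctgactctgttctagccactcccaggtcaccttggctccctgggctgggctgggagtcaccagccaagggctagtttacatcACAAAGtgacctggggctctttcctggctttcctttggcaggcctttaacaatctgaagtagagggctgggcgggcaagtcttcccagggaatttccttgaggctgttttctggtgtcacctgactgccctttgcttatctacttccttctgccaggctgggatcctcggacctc
Esrrb element 77.2 kb downstream, chr12:86498733-86499032, AAGGTCA on the plus strand: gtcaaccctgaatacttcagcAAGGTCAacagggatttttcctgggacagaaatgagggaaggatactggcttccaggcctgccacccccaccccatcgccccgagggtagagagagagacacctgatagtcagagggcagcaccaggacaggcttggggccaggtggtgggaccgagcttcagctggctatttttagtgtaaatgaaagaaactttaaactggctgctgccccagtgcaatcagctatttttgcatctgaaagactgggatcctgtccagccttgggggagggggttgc
Tfcp2l1 element 15.2 kb downstream, chr1:118643002-118643301, AAGGTCA and ACAAAG on the minus strand: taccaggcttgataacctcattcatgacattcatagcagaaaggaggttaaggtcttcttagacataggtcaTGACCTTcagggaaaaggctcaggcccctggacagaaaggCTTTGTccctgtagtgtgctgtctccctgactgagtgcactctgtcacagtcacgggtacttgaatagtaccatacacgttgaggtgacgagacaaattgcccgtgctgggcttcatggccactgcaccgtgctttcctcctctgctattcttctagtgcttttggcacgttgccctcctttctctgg
Zfp42 element 49.5 kb upstream, chr8:43356362-43356661, no match: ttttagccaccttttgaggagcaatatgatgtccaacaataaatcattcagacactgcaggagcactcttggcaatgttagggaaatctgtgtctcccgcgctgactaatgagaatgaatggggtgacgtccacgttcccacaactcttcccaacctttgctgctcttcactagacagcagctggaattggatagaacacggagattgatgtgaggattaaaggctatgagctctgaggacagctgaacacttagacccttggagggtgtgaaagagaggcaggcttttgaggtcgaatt
Across the middle 300 bases of all 82 elements, ATGCAAAT was found in 0, against 2.30% of the 111638 elements, ACAAAG in 21 (25.6%, against 31.1%), AAGGTCA in 5 (6.10%, against 6.61%) and GGGTGTGG in 2 (2.44%, against 2.50%). Among the 11 elements that were called lower than NMP at day 6 in at least 1 NP type, ACAAAG was in 4 and the other 3 sequences were in 0.

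Values are normalized counts, reads in an element divided by the size factor of the sample, recovered from the deposited log2 values. The depth of a sample, counted as its reads over all elements, ran from 9298160 to 29985325 (median 20254011). A sample of p0-1 at day 4 with 10 nM SAG, replicate 3, stood apart with 64.8% of its counts in elements covering a TSS. The day 4 samples ranged from 50.4% up to this value, and the NMP samples lay between 58.5% and 62.3%. The share was 48.9% to 57.4% at day 5 and 48.6% to 58.4% at day 6, so every sample of these days lay below every NMP sample, in the same direction as the TSS elements below. Its part in those differences was not tested beyond the fits scaled to counts at TSS elements, whose counts of calls stand with the other alternatives. The p0-1 sample that stood apart was the highest of its group for several of the TSS elements below. The NMP label was checked on the TSS elements of 8 NMP markers. Those of T, Cdx1, Cdx2, Nkx1-2 and Wnt3a were called lower in every NP type at day 6, that of Fgf8 was not called (mean 572 in NMPs and 201 at day 6), that of Tbx6 was not called (778 and 786), and that of Cdx4 did not pass the filter on low counts (187 and 8.97). Together the 8 held 10149 to 11754 normalized counts in NMPs and 1499 to 2225 at day 6. On the NP side, the elements nearest the TSS of Sox1, Pax6, Irx3, Olig2 and Nkx6-1 were not called in any comparison. Nkx2-2 had no element with values. The summed counts of these NP markers were 7319 to 9193 in NMPs and 9232 to 14172 at day 6. In bulk samples of sorted cells, fewer cells with an open element and less opening per cell cannot be told apart.

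At the level of the whole group, the loci had lost accessibility by day 6, unevenly. Of the 82 elements, 38 were lower in every one of the 19 NP samples of day 6 than in every NMP sample (46.3%, against 27.6% of all elements), 9 were higher in every one (11.0%, against 26.3%) and 35 overlapped. At the 10 elements over an annotated TSS, 9 were lower at day 6 and 7 were already lower in all 23 NP samples of day 4. For comparison, of the 13007 TSS elements with an NMP mean above 100, 36.9% were lower in every day 6 sample and 30.1% in every day 4 sample.

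Within 50 kb of the TSS, 30 of 47 elements were lower at day 6, 2 were higher and 15 overlapped. Beyond 50 kb, 8 of 35 were lower, 7 were higher and 20 overlapped. Over all elements, 35.3% were lower and 18.2% higher within 50 kb, and 15.9% were lower and 38.4% higher beyond it, a split by distance in the same direction. Klf4 held many of the far elements, up to 556 kb from its TSS, and 3 of its 22 elements were lower while 5 were higher and 14 overlapped. Pou5f1 (3 of 4 lower), Nanog (5 of 6), Esrrb (13 of 19), Klf2 (3 of 4), Tbx3 (2 of 3), Fgf4 (2 of 2) and Utf1 (2 of 2) had most elements in the lower class. Tfcp2l1 had 4 of 14, about the 27.6% of all elements, and Zfp42 had 1 of 6. These are small counts, and differences between genes were not tested.

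**Figure D1:**
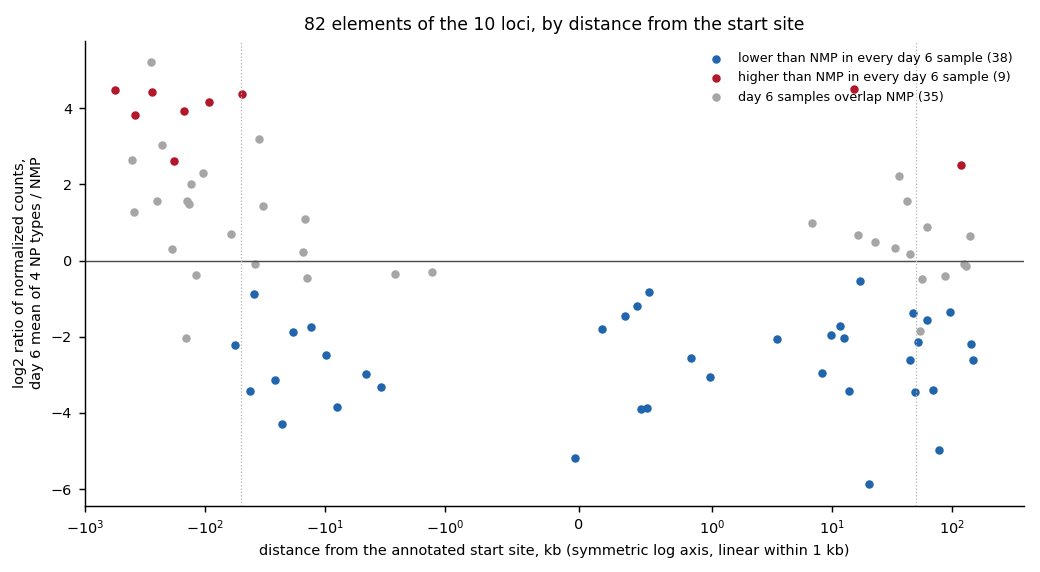
Change of each of the 82 elements between day 3 and day 6, as the log2 ratio of the mean over NP types to the NMP mean (y axis), against distance from the TSS in kb (x axis, linear near 0 and logarithmic beyond), with colors for the 38 elements lower in every day 6 sample, the 9 higher in every one and the 35 that overlap NMP, and dotted lines at 50 kb. Within the lines 30 of 47 points are lower, outside them 8 of 35.

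Differential accessibility was tested with limma, two-sided, on the deposited log2 values, with Benjamini-Hochberg adjustment over all elements whose mean over the compared samples was above 100 normalized counts. Calls required both an adjusted p below 0.01 and a log2 ratio of mean normalized counts beyond 2 in either direction. The 4 comparisons with day 6 and that with day 4 share the 3 NMP samples, so their values are given side by side and are not independent. Samples of a type at a day pool 2 SAG concentrations and share differentiations, so p-values may be too small.

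In p0-1 at day 6, 8 of 23 tested elements were called lower than in NMPs, against 11.5% of all tested, and 2 higher, against 22.5%. In p2, 8 of 23 were lower (background 11%) and 3 higher (25.5%). In pMN, 10 of 25 were lower (13.4%) and 3 higher (24.3%), and in p3, 10 of 25 were lower (13.6%) and 3 higher (22.6%). The median log2 ratio of the tested members was -1.30, -1.57, -1.60 and -1.80 in p0-1, p2, pMN and p3, where that of all tested elements was -0.08, -0.11, -0.15 and -0.17. The share called lower was above the background in each type and the share called higher below it. Without NMP replicate 2, 5 elements in place of 8 were called lower in p0-1, because the means of 3 of them were then under the filter. In p2, 6 in place of 8 were called lower whichever NMP replicate was left out. With single samples left out, the number called lower ranged over 8 to 12 in pMN and 8 to 11 in p3.

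The filter on the mean passed between 15 and 25 of the 82 elements, and elements that are low in most of the compared samples fail it. An element with few counts in NMPs passes this filter only through the NP samples, and the reverse also holds. A call of such an element adds no support beyond the values that carried it past the filter. Without it, 29 were called lower and 9 higher in p0-1 (background 14.7% and 25.5%), 25 and 13 in p2 (15.5% and 29.3%), 26 and 14 in pMN (16.0% and 28.8%), and 25 and 16 in p3 (15.8% and 28.1%). With the filter, 8 elements were called lower in all 4 types, namely the TSS elements of Pou5f1, Zfp42, Fgf4 and Utf1, elements 4.57 kb upstream and 8.21 kb downstream of Nanog, and elements 20.3 kb and 149 kb downstream of Tfcp2l1.

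Pou5f1, the gene for OCT4, had the deepest loss of the 10 TSS elements. Its element at chr17:35503751-35508265 covers the promoter and was 4515 bp wide. The 3 NMP samples had 1108, 1898 and 1532 normalized counts (1513 ± 395, SD, n = 3). The 23 NP samples of day 4 had 59.0 to 149, with a median of 85.4, and the 19 of day 6 had 24.3 to 56.1, with a median of 42.7. Every NP sample lay far below every NMP sample. Its log2 ratio at day 6 was -5.21, -5.31, -5.06 and -5.16 in p0-1, p2, pMN and p3, and the corresponding differences in the transformed values were -4.85 ± 0.19, -4.93 ± 0.19, -4.71 ± 0.17 and -4.83 ± 0.23 (SE). The adjusted p from limma was 1.52e-09, 6.85e-11, 8.11e-10 and 7.97e-09.

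Most of that loss had happened within a day. The mean of the 4 NP types was 6.07% of the NMP level at day 4, 2.86% at day 5 and 2.69% at day 6, so that 96.5% of the fall to day 6 was reached by day 4. Among the 13007 TSS elements with an NMP mean above 100, 0.108% kept a smaller share at day 6. Against NMP, the day 4 samples had a log2 ratio of -4.04 with an adjusted p of 1.11e-15. In that comparison 2 of 21 tested members were called lower (3.31% of all tested) and 3 higher (19.8%), the median log2 ratio being -0.89 for members and -0.34 for all.

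The other Pou5f1 elements were weaker in NMPs. The element 3.40 kb upstream had 69.1, 67.4 and 99.1 normalized counts in NMPs and 2.82 to 13.9 at day 6, with a median of 7.01. The element 3.48 kb downstream had 201, 169.95 and 134 in NMPs and 14.6 to 80.2 at day 6. Neither overlapped NMP at day 6. The element upstream never passed the filter on the mean, and that downstream passed it in pMN alone, where its log2 ratio of -1.31 was short of the threshold. The element 15.2 kb upstream overlapped.

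Over the 25 condition means, the TSS elements most like that of Pou5f1 among 6976 annotated promoters were those of Dmtn, a regulator of the membrane skeleton (Pearson r = 0.98), Esrp1, an epithelial splicing factor (0.98), and Sypl2 (0.97). The mean at the Dmtn promoter was 2146 in NMPs, 143 at day 4 and 78.0 at day 6, and that at the Esrp1 promoter was 2272, 427 and 244. These correlations across conditions rest largely on the contrast of NMPs with everything after, and are descriptions of 25 means.

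Nanog encodes the homeodomain factor that stabilizes the pluripotent state. Its TSS element had 156, 196 and 197 normalized counts in NMPs (183 ± 23.1, SD, n = 3), 20.8 to 56.5 at day 4 with a median of 35.4, and 4.84 to 18.1 at day 6 with a median of 11.8. The groups did not overlap at any day. It kept 20.3%, 9.24% and 6.26% of the NMP level at days 4, 5 and 6, and 0.92% of TSS elements kept less at day 6. Its mean over the compared samples was below the filter in every comparison. Without the filter its log2 ratio at day 6 was between -4.22 and -3.68 over the 4 types, with the largest adjusted p being 2.49e-08 from limma.

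The element 4.57 kb upstream of Nanog (chr6:122702077-122703913), whose middle is printed above, was higher in NMPs than the TSS element, with 411, 351 and 363 normalized counts. At day 4 it had 66.5 to 196 with a median of 104, and at day 6 it had 17.0 to 113 with a median of 39.6. No NP sample reached the lowest NMP sample, but the types differed in what remained at day 4, p3 having 149 to 196 and the other types 66.5 to 117. The log2 ratio at day 6 was -2.65 in p0-1, -3.35 in p2, -3.74 in pMN and -2.54 in p3, with adjusted p of 4.5e-05, 3.67e-08, 2.97e-08 and 9.9e-07. In p3 against the other types at day 6 its mean was under the filter and it was not tested. Without the filter the log2 ratio was 0.71, with an adjusted p of 0.0569 from limma.

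The element 8.21 kb downstream of Nanog had 269, 213 and 282 normalized counts in NMPs and 18.4 to 50.2 at day 6, with no overlap. It kept a larger share at day 4 than the TSS element, 46.5%, and then 19.5% at day 5 and 12.5% at day 6. Its log2 ratio at day 6 was -3.31, -3.17, -2.47 and -3.03 in the 4 types. In p0-1 and p2 its mean was so near the filter that leaving out any of NMP replicates 1, 2 and 3 took it out of the test. The element 38.7 kb upstream also lay below NMP in every day 6 sample and kept 54.0% of the NMP level.

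Esrrb encodes an orphan nuclear receptor of the naive network, and the 13 of its 19 elements that were lower at day 6 lay from 56.2 kb upstream to 96.2 kb downstream. The TSS element had 708, 697 and 666 normalized counts in NMPs, 243 to 573 at day 4 with a median of 319, and 193 to 318 at day 6 with a median of 242. All NP samples were below all NMP samples. It kept 48.2%, 32.9% and 36.6% at days 4, 5 and 6, and its log2 ratio of -1.30 to -1.57 at day 6 did not pass the threshold on size, although the adjusted p was at most 3.65e-06.

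Several distal elements of Esrrb lost more than the promoter did. The element 77.2 kb downstream had 270.3, 194 and 200.5 normalized counts in NMPs, 9.46 to 36.2 at day 4 and 2.54 to 10.6 at day 6, keeping 2.72%. The element 22.6 kb upstream had 166, 113 and 86.2 in NMPs and 1.18 to 14.1 at day 6, keeping 4.32%. At 25.9 kb upstream the NMP samples had 256, 216 and 152 and the day 6 samples 11.3 to 42.9. The NMP and day 6 samples did not overlap at any of these elements. Of the 3, that at 25.9 kb passed the filter, in p3 alone, where its log2 ratio was -3.09 with an adjusted p of 7.07e-07. Leaving out any of NMP replicates 1, 2 and 3 brought its mean under the filter. Elements 41.9 kb upstream, 48.9 kb downstream and 68.8 kb downstream kept 8.67%, 8.61% and 8.14% at day 6. These were singled out after their values were seen.

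Klf4 and Klf2 encode Krüppel-like factors of the naive network that are also expressed in other tissues. The Klf4 TSS element had 1971, 1914 and 1605 normalized counts in NMPs, 901 to 1809 at day 4 with a median of 1136, and 840 to 1193 at day 6 with a median of 1026. The day 6 samples were all below the NMP samples, while at day 4 the p0-1 sample that stood apart, at 1809, lay among them. The Klf2 TSS element had 1847, 1776 and 1153 in NMPs and 480 to 914 at day 6, again with no overlap. Klf4 kept 56.3% and Klf2 43.7% of the NMP level at day 6, and neither was called, the Klf4 log2 ratios being -0.73 to -0.93 and those of Klf2 -1.05 to -1.32.

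Among the distal elements of these genes, that 7.91 kb upstream of Klf2 had a mean of 42.4 normalized counts in NMPs and kept 4.78% at day 6. The Klf4 element 51.7 kb downstream had 189, 201 and 170.2 in NMPs and 26.6 to 65.1 at day 6. It was called lower in pMN (log2 ratio -2.17, adjusted p 6.24e-07) and p3 (-2.03, 5.26e-05), close to the threshold on size. In p0-1 and p2 its mean was under the filter and it was not tested. Leaving out any of NMP replicates 1, 2 and 3 brought its mean under the filter in pMN and p3 too. In p3 the log2 ratio was -1.88 without the 100 nM replicate 2 and -1.85 without the 500 nM replicate 2.

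Tfcp2l1 encodes a factor of the LIF-dependent naive network, and its locus held both an element that was lost and an element that was gained in all 4 types. The TSS element had 834, 792 and 690.3 normalized counts in NMPs, 188 to 422 at day 4 and 175 to 273 at day 6, with a median of 214. No NP sample of either day reached the NMP samples. It kept 31.7%, 32.5% and 28.5% at days 4, 5 and 6, and its log2 ratio of -1.68 to -1.89 was short of the threshold.

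An element 20.3 kb downstream of that TSS (chr1:118647816-118648612), in an intron, had 309, 370 and 340 normalized counts in NMPs. It had 3.94 to 20.3 at day 4, with a median of 10.2, and 1.30 to 9.16 at day 6, with a median of 4.66. The groups were far apart already at day 4. Its log2 ratio at day 6 was -5.82, -6.28, -6.00 and -5.52 in p0-1, p2, pMN and p3, with adjusted p of 9.71e-09, 3.48e-10, 2e-09 and 1.19e-08. Its mean fell under the filter without NMP replicate 2 in p0-1 and without any of NMP replicates 1, 2 and 3 in p2. A further element 149 kb downstream had 321, 476 and 418 in NMPs and 35.3 to 146 at day 6, with log2 ratios of -3.15, -2.54, -2.03 and -2.98. That in pMN was -1.90 without NMP replicate 2, -1.89 without the 100 nM replicate 2 and -1.79 without the 500 nM replicate 2.

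Tbx3 encodes a T-box factor that is used again in many embryonic tissues, and its TSS element changed least of the 10. It had 1839, 1493 and 1587 normalized counts in NMPs and 1124 to 1556 at day 6, and the groups overlapped. It kept 81.0%, close to the 84.5% that was the median of all 13007 TSS elements. The element 9.85 kb downstream had 467, 397 and 472 in NMPs and 70.1 to 153 at day 6, with no overlap. Its log2 ratio was -1.90, -1.95, -2.03 and -1.97, so that it was called in pMN alone, although all types lay near the threshold. In pMN it was -1.99 without NMP replicate 1, -1.99 without NMP replicate 3, -1.97 without the 100 nM replicate 3 and -1.88 without the 500 nM replicate 3.

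Zfp42, Fgf4 and Utf1 are targets or markers of the pluripotent state, and their TSS elements were called lower in all 4 types. Zfp42, which encodes REX1, had 309, 375 and 291 normalized counts in NMPs, 30.7 to 84.1 at day 4 with a median of 54.1, and 11.5 to 33.1 at day 6 with a median of 21.4. No NP sample of either day reached the NMP samples, and it kept 17.7%, 9.99% and 6.59% at days 4, 5 and 6. Its log2 ratio at day 6 was -3.97, -3.56, -3.92 and -4.05, with a largest adjusted p of 5.48e-08. Without NMP replicate 2 its mean was under the filter in p0-1 and p2.

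Fgf4, an autocrine growth factor of ES cells and a classical OCT4 and SOX2 target, had 616, 517 and 508 normalized counts at its TSS element in NMPs. It had 106 to 371 at day 4 with a median of 189, and 64.3 to 118 at day 6 with a median of 91.3. The log2 ratio was -2.28, -2.65, -2.76 and -2.59 at day 6 and -1.50 at day 4, so it was called at day 6 and not at day 4. At both days the NP samples were all below the NMP samples. The other Fgf4 element, 13.8 kb downstream, kept 8.58% at day 6.

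Utf1, a chromatin-bound factor of undifferentiated cells, had 1390.3, 1411 and 1003 normalized counts in NMPs. It had 121 to 375 at day 4 with a median of 186 and 105 to 244 at day 6 with a median of 134. The NP samples of both days were all below the NMP samples. Of the 8 TSS elements that passed the filter at day 4, it and that of Pou5f1 were called lower there (log2 ratio of Utf1 -2.68, adjusted p 8.62e-14). It kept 15.7%, 11.2% and 11.8% at days 4, 5 and 6.

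**Figure D2:**
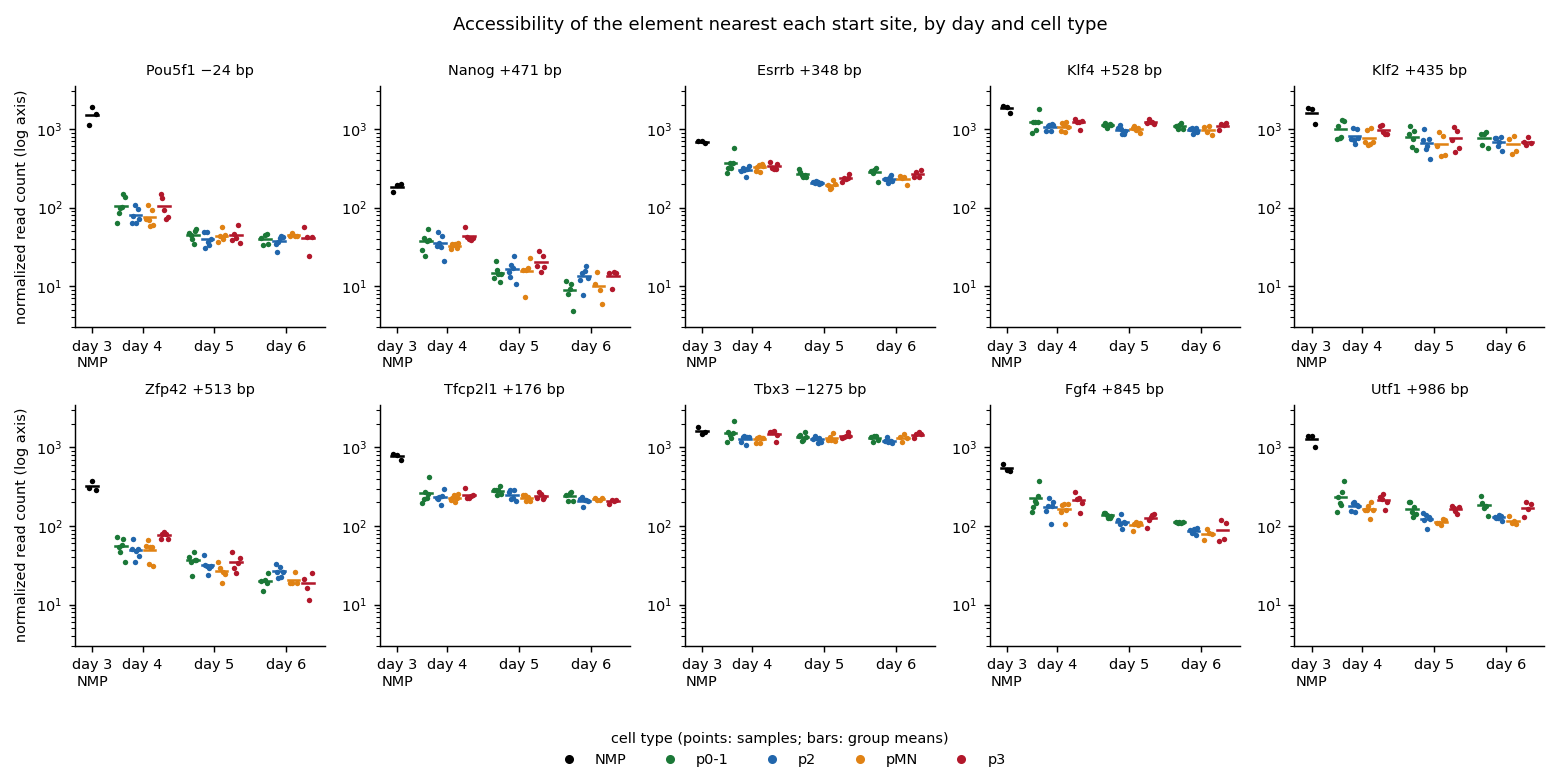
Normalized counts (y axis, logarithmic) at the TSS element of each of the 10 genes by day and cell type (x axis), with a point for each sample and a bar for the mean. The Pou5f1 element goes from 1108 to 1898 in NMPs to 24.3 to 56.1 at day 6, while the Tbx3 element stays between 1071 and 2162 in all NP samples of days 4 and 6.

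Set in order of what remained at day 6, the TSS elements ran from Pou5f1 (2.69% of the NMP level), Nanog (6.26%) and Zfp42 (6.59%) through Utf1 (11.8%) and Fgf4 (16.8%) to Tfcp2l1 (28.5%), Esrrb (36.6%), Klf2 (43.7%), Klf4 (56.3%) and Tbx3 (81.0%). The order is that of 10 single elements, and differences between groups of genes were not tested. Distal elements did not follow it, several at Esrrb having kept as little as the TSS elements at the low end. Of all 13007 TSS elements, 1.02% kept less than Zfp42, 3.11% less than Utf1, 5.40% less than Fgf4, 10.9% less than Tfcp2l1, 14.9% less than Esrrb, 18.9% less than Klf2, 25.5% less than Klf4 and 45.7% less than Tbx3. The medians over these elements were 71.0%, 77.5% and 84.5% at days 4, 5 and 6. At day 6 the 10th and 90th percentiles were 26.6% and 116%, and 2.22% were under 10%.

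Of the 9 TSS elements that passed the filter in the comparisons with day 6, 4 were called lower in each. Among all tested elements covering a TSS, 5.81% were called lower in p0-1, 6.50% in p2, 7.84% in pMN and 7.42% in p3, and 1.56% at day 4. Across the 9 genes with a promoter in RefSeq, the share left at day 6 had r = 0.68 (Spearman 0.70) with the CpG ratio, 0.59 (0.48) with the GC content and 0.54 (0.53) with the NMP level. These are descriptions over 9 genes, whose elements also differ in width and level. For Nanog the CpG ratio was that of the window printed above, but the GC content (56.0%) was that of another annotated window, chr6:122707315-122707614. The printed window has 54.3%, and the correlation with that value was not computed.

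**Figure D3:**
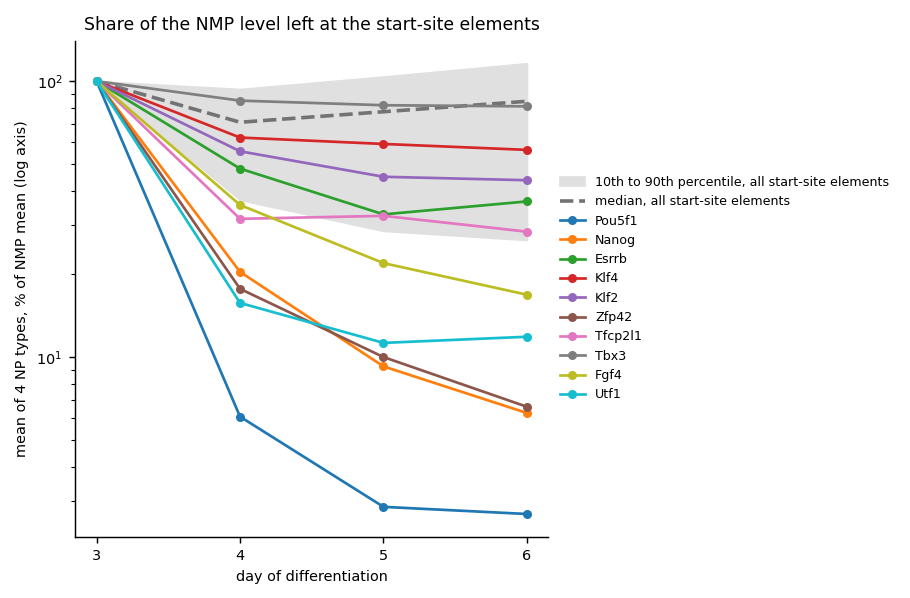
Mean normalized count of the 4 NP types as a percentage of the NMP mean (y axis, logarithmic) at days 4, 5 and 6 (x axis) for the TSS elements of the 10 genes, with the median and the 10th to 90th percentile of 13007 TSS elements behind them. Pou5f1 lies lowest at each day, at 6.07%, 2.86% and 2.69%, and Tbx3 highest, at 85.0%, 81.8% and 81.0%.

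Accessibility was also gained at some of these loci. The Tfcp2l1 element 15.2 kb downstream (chr1:118642662-118643642), in the same intron as the lost element above, had 9.70, 12.1 and 16.2 normalized counts in NMPs. It had 14.2 to 51.8 at day 4, 106 to 368 at day 5 and 175 to 483 at day 6. Day 4 overlapped NMP and day 6 did not. The log2 ratio at day 6 was 4.98, 4.44, 4.54 and 3.85 in p0-1, p2, pMN and p3, and it was called higher in all 4. Means at day 6 were 431 in p0-1, 295 in p2, 318 in pMN and 196 in p3.

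Between day 4 and day 6 the same Tfcp2l1 element was the only one of 16 tested members to be called higher (5.93% of all tested), with a log2 ratio of 3.30 and an adjusted p of 1.49e-27. The element passed the filter only through its day 6 samples, so the call adds no support beyond their values. Of the 16, 0 were called lower (1.6% of all tested), although 10 had an unadjusted p under 0.05 in that direction. A fit with voom on the recovered reads also called 0 lower. The median log2 ratio over those days was -0.25 for members and 0.22 for all elements.

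Another Tfcp2l1 element, 33.3 kb downstream, was open for a short time. It had 18.2, 8.09 and 12.9 normalized counts in NMPs, 61.9 to 230.4 at day 4 with a median of 126, 19.0 to 83.3 at day 5 and 3.87 to 38.8 at day 6. Day 4 lay above NMP in every sample and day 6 overlapped it. At day 4 it was called higher than NMP (log2 ratio 3.21, adjusted p 2.62e-11). The element passed the filter there only through its day 4 samples. It was described after its values were seen.

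Gains assigned to Klf4 lay far from the gene. The element 556 kb upstream had 9.70, 6.74 and 8.62 normalized counts in NMPs and 71.9 to 404 at day 6. It was called higher in p0-1, p2 and pMN with log2 ratios of 4.34, 5.00 and 4.56. In p3, with 71.9 to 160 at day 6, its mean was under the filter and it was not tested. The element 149 kb upstream had 8.49, 2.70 and 8.62 in NMPs, 76.6 to 370.5 at day 4 and 19.4 to 223 at day 6. It was called higher at day 4 (4.75, adjusted p 8.78e-16 from limma) and, at day 6, in p2 (4.33) and pMN (4.68). In p0-1 and p3 its mean was under the filter and it was not tested. Without the 100 nM replicate 2 or the 500 nM replicate 3 its mean in pMN was under the filter. Both of these Klf4 elements passed the filter only through their NP samples, so the calls add no support beyond those values. Neither element overlapped NMP at day 6, and at day 6 pMN had the highest mean at the element 149 kb upstream, 194 against 152, 69.0 and 46.9 in p2, p0-1 and p3.

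The NP types were compared with each other at day 6. In p3 against the other types, 1 of 15 tested members was called higher (2.57% of all tested) and 0 were called lower (7.03% of all tested), where 3 had an unadjusted p under 0.05 in that direction and voom also called 0. Without the filter on the mean, 10 of 82 were called higher in p3 (background 7.04%) and 3 lower (6.2%). Of the 10, 6 were assigned to Klf4, 2 to Tfcp2l1, 1 to Nanog and 1 to Zfp42.

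The element called with the filter was that 49.5 kb upstream of Zfp42 (chr8:43356150-43356874). It had 3.64, 6.74 and 5.38 normalized counts in NMPs. At day 6 the 4 p3 samples had 222, 289, 372 and 420.5, the pMN samples 89.2 to 193, the p2 samples 29.2 to 83.1 and the p0-1 samples 8.15 to 28.1. At day 6 the 4 types did not overlap and stood in the order p0-1, p2, pMN and p3, which is their order from dorsal to ventral. SAG also rose from p0-1 to p2 to pMN, while pMN and p3 shared concentrations, and its part was not tested. The log2 ratio of p3 to the other types was 2.85, with a difference of 2.52 ± 0.24 (SE) in the transformed values and an adjusted p of 3.49e-08. The element passed the filter only through its p3 samples. Without the p3 sample of 100 nM replicate 2 its mean was under the filter, and 0 members were called. The call therefore adds no support beyond the values of the p3 samples. Already at day 4 p3 had 92.9 to 191, above the 14.4 to 71.0 of the other types, and at day 5 it had 412 to 449. The other types overlapped on these days. At day 4 p2 had 39.5 to 71.0 and pMN 33.2 to 68.7. At day 5 p0-1 had 19.1 to 115, p2 107 to 211 and pMN 167 to 295.

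The Klf4 element 280 kb upstream (chr4:55811603-55812401) had 3.64, 0 and 2.15 normalized counts in NMPs. The p3 samples had 270.4 to 449 at day 6 and the other types 3.53 to 81.8. It was at 3.94 to 8.25 in p3 at day 4, so that its gain came after day 4, with 138 to 206 at day 5. Against NMP it was called higher in p3 (log2 ratio 6.94, adjusted p 1.94e-08). Since the NMP samples hold so few reads, that ratio depends on the pseudocount of 1. The element passed the filter only through its p3 samples, and in the other types it was under the filter and not tested.

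**Figure D4:**
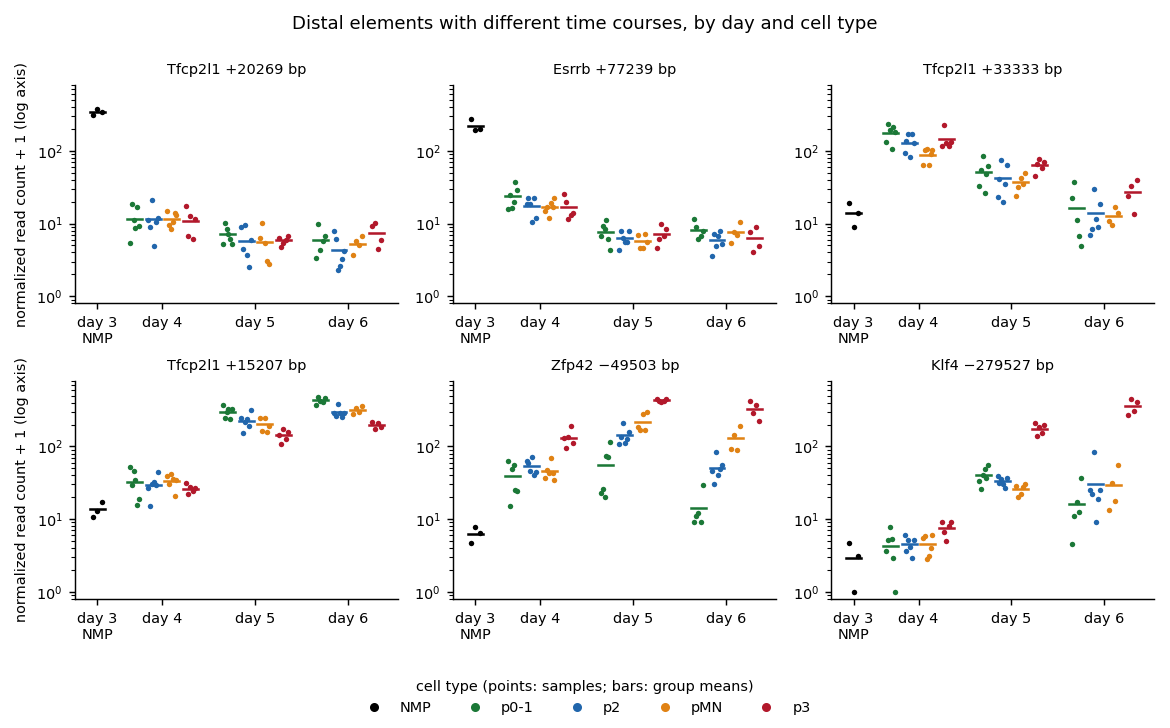
Normalized counts plus 1 (y axis, logarithmic) by day and cell type (x axis) at 6 distal elements, with a point for each sample. The Tfcp2l1 element at 20.3 kb and the Esrrb element at 77.2 kb drop to at most 10.6 at day 6, the Tfcp2l1 element at 33.3 kb is high at day 4 only, that at 15.2 kb rises to between 175 and 483, and the Zfp42 element at 49.5 kb and the Klf4 element at 280 kb are highest in p3.

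The same comparisons were made on a list of 21 other genes of the pluripotency network, with 204 elements. In p0-1, p2, pMN and p3 at day 6, 18, 18, 18 and 16 were called lower, and 8, 12, 11 and 12 higher, of 60, 62, 63 and 64 tested. Of all tested elements, 11.5%, 11%, 13.4% and 13.6% were called lower and 22.5%, 25.5%, 24.3% and 22.6% higher in the same comparisons. The median log2 ratio was -0.78, -0.53, -0.54 and -0.70. The TSS-nearest elements of Tdgf1, a NODAL co-receptor, Gdf3 and Nodal, ligands of that pathway, and Lefty1, its inhibitor, were called lower in all 4 types. The Nodal element went from a mean of 894 normalized counts in NMPs to 147 at day 6 and that of Gdf3 from 305 to 27.9. The elements of Stat3, Socs3 and Il6st, parts of the LIF response, and of Sall4, Klf5, Gbx2 and Nr0b1 were not called in any type. Dppa3, a germ cell and naive marker, had a mean of 139 in NMPs and 6.83 at day 6, below the filter.

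On a list of 7 genes of the formative and primed epiblast, 8, 7, 9 and 8 of 22, 22, 22 and 23 tested elements were called lower in the 4 types and 0 were called higher in each by limma or by voom, with 1, 2, 2 and 1 at an unadjusted p under 0.05 in that direction. The shares of all tested elements are those given for the list above. The TSS element of T was called lower in all 4 types and that of Otx2, a forebrain and epiblast factor, in p0-1, p2 and pMN, Otx2 going from a mean of 232 to 49.6 and T from 1175 to 115. Those of Fgf5, Dnmt3b, Pou3f1 and Fgf8 were not called, nor was the element nearest the TSS of Zic2. T and Fgf8 are also among the NMP markers above, so their values are not separate from that check. Other cell types were followed by the summed counts at the elements nearest the TSS of their markers. For 5 fibroblast feeder markers these were 2179 to 2470 in NMPs and 559.9 to 1035 at day 6, for 4 endoderm markers 1774 to 2061 and 548 to 759, and for 3 germ cell markers 524 to 600.2 and 306 to 545. For 4 neuron markers they were 3173 to 3767 in NMPs and 1751 to 4936 at day 6. The feeder and endoderm sums did not overlap between NMPs and day 6, and the germ cell and neuron sums did. No marker was at 0 in the NMP samples, and of the feeder and endoderm markers Col1a2, Thy1 and Sox17 were called lower in all 4 types. The part of such cells in the results was not tested.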

How the data were processed

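CaTS-ATAC was measured in 67 samples of 25 conditions, 17 with 3 replicates and 8 with 2, the replicates being separate differentiations. Reads were aligned by the authors to mm10, peaks were called with MACS, and reads were counted per consensus element. The authors deposited log2-scale values from the variance-stabilizing transformation of DESeq2 and a HOMER annotation of 133549 elements. That annotation assigned 104 elements to the 10 genes, and 22 without values were not analysed here. The transformation was inverted, which gave whole reads, within 0.01, for 100% of values under 1000 reads. Size factors were between 0.495 and 1.50, so a count of a few reads carries a large counting error, and intervals from samples cover the spread between differentiations of 1 line.

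Groups were taken from the sample titles, pooled over SAG concentrations within day and type. In limma 3.58.1 (R 4.3.3) linear models with a variance trend were fitted to the deposited log2 values of the groups compared, with Benjamini-Hochberg adjustment over elements with a mean above 100 normalized counts. Calls needed a log2 ratio of normalized counts beyond 2 in size, with a pseudocount of 1, and an adjusted p below 0.01. Shares of the NMP level are means of the 4 NP type means over the NMP mean. Summaries used Python 3.11.15, numpy 2.4.6, pandas 2.3.3 and scipy 1.17.1. The fits were tested on simulated data.

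The elements described were, for each gene, that nearest the TSS, those highest in NMPs or at day 6, and those called, and other members were chosen after their values were seen. The genes and lists were chosen with earlier results of these data known. Same-numbered samples deviated together, with a median correlation between 0.18 and 0.54 over the 7 comparisons, and every pair was above 0.1 in 2 of them. Title and description disagreed on the replicate number of 15 samples, and the title's was used. Alternatives were a fold change above 2, no filter, size from the transformed values, voom, centering on the median, all samples in 1 fit, a replicate block, leaving out single samples and, added after the data were seen, scaling to counts at start sites, blocks by the description's numbers and leaving out the day 4 sample that stood apart.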

Additional observations from a re-analysis of the deposited data

Results flagged for a closer look

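Single samples stood apart from the rest of their day and cell type in 15 of 264 groups examined at the described elements, and chance alone gives about 1 in 20. Of these 15, 3 were the p0-1 sample of day 4 with 10 nM SAG, replicate 3, which also had the highest share of counts at start sites. Its TSS elements had 573 normalized counts for Esrrb (the others 277 to 374), 1809 for Klf4 (901 to 1225) and 422 for Tfcp2l1 (196 to 269.8). At day 4 in p3, the 100 nM replicate 1 was high at the TSS of Nanog (56.5, the others 38.5 to 41.7) and Tfcp2l1 (303, 226 to 247), and the 500 nM replicate 1 was low at the TSS of Klf4 (977, 1232 to 1328) and at the Esrrb element 25.9 kb upstream (16.2, 26.3 to 28.4).

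At day 6 the Nanog TSS element had 9.16 in p3, 100 nM replicate 3 (the others 14.6 to 15.0), the Zfp42 TSS element had 26.1 in pMN, 500 nM replicate 2 (18.7 to 18.8), and the Tfcp2l1 element 149 kb downstream had 69.3 in p3, 100 nM replicate 2 (42.7 to 45.8). The p2 sample of 100 nM replicate 3 was high at the gained Tfcp2l1 element 15.2 kb downstream (382, 256 to 291) and at the Klf4 element 280 kb upstream (81.8, 8.15 to 24.6). The remaining samples were p3 of day 5, 500 nM replicate 2, at the Tbx3 TSS (1587, 1324 to 1394), and at the Zfp42 element 49.5 kb upstream pMN of day 4, 500 nM replicate 1 (68.7, 33.2 to 46.3) and p0-1 of day 6, 10 nM replicate 3 (28.1, 8.15 to 11.0).

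The change of the Zfp42 element 49.5 kb upstream between NMP and day 6 differed between p3 and the other types. This is the comparison of p3 with the other types at day 6 given above, in which the NMP samples cancel, and not a separate test. It gave a log2 ratio of 2.85 with an adjusted p of 3.49e-08 from limma. Without the p3 sample of 100 nM replicate 2 the element was under the filter and not called. All 4 p3 samples were above all 15 others.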

How the results depend on the processing

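The numbers of called members were 10, 11, 13 and 13 for NMP against p0-1, p2, pMN and p3 at day 6, 5 for NMP against day 4, 1 between days 4 and 6 and 1 for p3 against the other types. With a fold change above 2 in place of the log2 limit they were 18, 18, 20, 19, 14, 4 and 2. Without the filter on the mean they were 38, 38, 40, 41, 25, 5 and 13. Single samples were left out only of groups with at most 5 samples, plus the day 4 sample that stood apart. The numbers then ranged over 7 to 12, 9 to 9, 11 to 15, 11 to 14, 5 to 6, 1 to 1 and 0 to 1. For p2 this covered the 3 NMP samples alone, and each fit gave 9 in place of 11. Of 33 calls lost in this way, 24 were of elements whose mean was no longer above the filter and 9 of elements whose log2 ratio fell short of the limit, the smallest being 1.79 in size. With a replicate block the counts were 10, 11, 13, 13, 5, 1 and 1, and neither this block nor that with the description's numbers changed a call of the described elements.

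Scaling to counts at start sites gave 10, 11, 10, 12, 5, 1 and 1. Under it, centering or size from the transformed values, calls were lost at the Klf4 element 51.7 kb downstream, the Tbx3 element 9.85 kb downstream and the Tfcp2l1 element 149 kb downstream. No direction changed among the described elements under the alternatives run. Elements with few reads in NMPs or at day 6 limit the precision of large ratios, the NMP group has 3 samples, and nearness does not assign an element to its target gene.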
